A study of Mus musculus with 12 samples.

Results

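Complement is a cascade of plasma and tissue proteins, and 9 of its genes, out of 24570 named genes on the arrays, are described here in whole mouse retina: the C1q chains C1qa, C1qb and C1qc, the central components C3 and C4b, the protease precursor Cfb, and the inhibitors Cfi, Serping1 and Cd59a. They were chosen by symbol as activators and inhibitors of the cascade, and all 9 were measured. Animals were male C57BL6/J mice, with 6 made diabetic by 1 intraperitoneal dose of streptozotocin, which kills pancreatic beta cells (160 mg/kg, given at 8 weeks of age to mice of 24 to 26 g, with blood glucose above 15 mM required after 7 days), and 6 normoglycemic animals without streptozotocin as controls. Retinas were compared at 6 weeks, with 1 array per animal, to look for early regulation of genes in incipient retinopathy. The labels give 6 weeks both as the time after induction and as the age of the diabetic mice, and such an age does not match an injection at 8 weeks. The number ranges in the animal labels do not overlap between the groups, so a cohort or day that these may stand for cannot be told apart from diabetes. Streptozotocin itself and the diabetes that it causes cannot be told apart in these groups.

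In the classical pathway, C1q binds to immune complexes, dying cells or synapses and, with its proteases, cleaves C4 and C2; in the alternative pathway, factor B forms the enzyme that cleaves C3. Both routes meet at C3, whose fragments tag surfaces for uptake, and end in a pore in the membrane. In the retina, microglia are known as the main source of C1q, glia and vascular cells make C3, C4 and the C1 inhibitor, and neurons and glia carry CD59, which blocks the pore.

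The promoters of C1qb and C1qc are shown because these genes lie side by side and encode chains of 1 protein. They come from a table of RefSeq promoters (GRCm38.p6) in which 4 of the 9 genes matched, and are printed 5′ to 3′ on the strand of the gene. Each runs from 250 bases before to 50 bases after the start set by that table. The promoter of C1qb lies on the minus strand at chr4:136886151-136886450 and that of C1qc on the minus strand at chr4:136892865-136893164. For C1qc the start set by the table lies within the gene, whose 5′ end in RefSeq is at chr4:136892936. Capitals mark the letters GAGGAA on either strand, a core bound by PU.1, a transcription factor of microglia and macrophages.
C1qb: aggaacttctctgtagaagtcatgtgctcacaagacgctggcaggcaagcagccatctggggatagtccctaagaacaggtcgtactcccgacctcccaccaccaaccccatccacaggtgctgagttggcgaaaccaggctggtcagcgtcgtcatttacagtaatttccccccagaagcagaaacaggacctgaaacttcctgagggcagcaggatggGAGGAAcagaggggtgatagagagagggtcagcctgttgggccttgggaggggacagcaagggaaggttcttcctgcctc
C1qc: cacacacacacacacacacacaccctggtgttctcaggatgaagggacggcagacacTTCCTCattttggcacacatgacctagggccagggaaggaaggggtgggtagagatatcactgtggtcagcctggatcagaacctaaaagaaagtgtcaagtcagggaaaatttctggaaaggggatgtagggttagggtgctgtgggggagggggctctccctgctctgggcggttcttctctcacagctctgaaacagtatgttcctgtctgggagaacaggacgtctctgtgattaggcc
GAGGAA was found once in each, starting at base -30 of C1qb and, on the opposite strand, at base -193 of C1qc, counted from the start set by the promoter table. The matched promoter of Cd59a holds GAGGAA too, and that of C3 does not. Of 32851 promoters of this length, 28.3% hold GAGGAA. These are matches of letters, not measured sites.

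Values are log2 RMA values (robust multi-array average, a background-corrected and quantile-normalized summary of the probes of a gene). The median of the table was 5.73 and its minimum 5.07, and correlations between arrays ran from 0.993 to 0.998. Of the 9 genes, 6 had a mean below the median gene and 3 at or above it. The defining genes of the tissue were bright, with a mean over 6 rod markers of 12.70 ± 0.04 in diabetic and 12.71 ± 0.03 in control retinas (SD, n = 6 each). Lens markers, from the tissue next to the retina, were uneven, at 6.63 ± 0.80 in diabetic and 6.29 ± 0.35 in control retinas, and highest in diabetic replicate 6 (7.91) and diabetic replicate 2 (7.30). Pigment epithelium markers were uneven too, at 7.13 ± 0.47 in diabetic and 7.10 ± 0.34 in control retinas, and also highest in diabetic replicate 6 (7.92). In whole retina, fewer cells of a type and less RNA per cell cannot be told apart.

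None of the 9 genes passed the test between diabetic and control retinas (limma, two-sided, Benjamini-Hochberg adjustment over all 24570 genes, threshold 0.05), where 3.24% of all genes passed. An exact permutation test adjusted in the same way called 0 of the 9, but also 0 of all genes. At an unadjusted limma p under 0.05 there were 3 of 9, C1qa lower and C1qc and Serping1 higher, against 21.0% of all genes. By the exact permutation test 2 of 9 had an unadjusted p under 0.05, C1qc and Serping1. Of the 9 changes, 6 were above 0, where 48.1% of all genes were, and 3 below. Their median was 0.0067 on the log2 scale, against -0.00179 over all genes. For 7 of the 9, the 95% interval of the change lay within 1.2-fold in either direction, and Serping1 and Cd59a were the other 2. All 6 genes with a mean below the median gene were among these 7. RMA compresses changes near the low end of the table, so narrow intervals there do not show that changes were small.

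**Figure D1:**
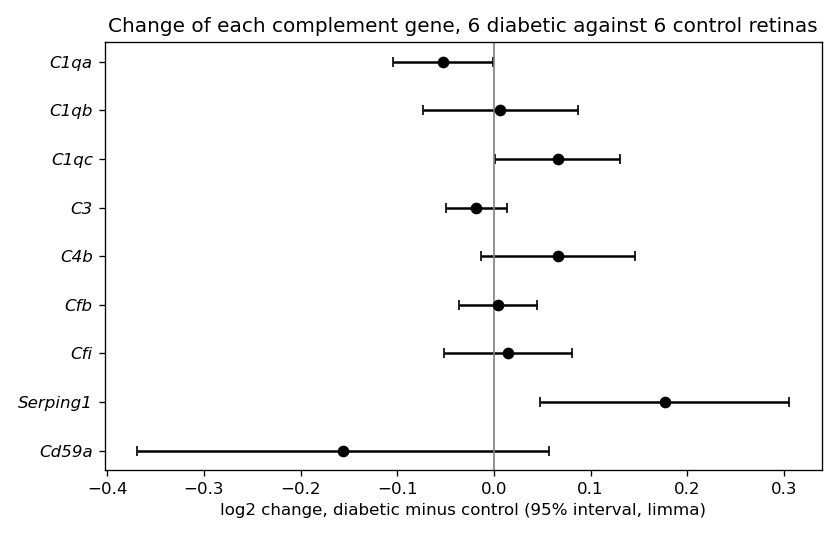
Log2 change of each of the 9 complement genes, diabetic minus control (x axis), with one gene per line (y axis); points are limma estimates and bars 95% intervals, 6 arrays per group. The interval of Serping1 lies above 0 (0.05 to 0.31), that of Cd59a is the widest (-0.37 to 0.06), and no gene passed after adjustment over all genes.

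The 3 C1q chains differed in both directions, none past the test: in diabetic retinas the mean of C1qa was lower and that of C1qc higher, while that of C1qb was within 0.01 of the control mean on the log2 scale. C1qa ranged from 5.59 to 5.75 in diabetic retinas (median 5.66) and from 5.68 to 5.76 in control retinas (median 5.71). In 5 of the 6 diabetic retinas it lay below the lowest control, while diabetic replicate 3 lay within the control range. The difference was -0.05 ± 0.02 on the log2 scale (SE, limma; 95% interval -0.10 to -0.0011), with an adjusted p of 0.229.

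C1qb had 5.65 to 5.86 in diabetic retinas (median 5.74) and 5.67 to 5.84 in control retinas (median 5.74). The groups covered almost the same range, and the difference was 0.01 ± 0.04 (95% interval -0.07 to 0.09; limma adjusted p = 0.941). C1qc had 5.37 to 5.55 in diabetic retinas (median 5.40) and 5.30 to 5.39 in control retinas (median 5.35). All 6 diabetic values lay above the control mean and 3 above the highest control. Its difference was 0.07 ± 0.03 (95% interval 0.0010 to 0.13; limma adjusted p = 0.231), and diabetic replicate 6, at 5.55, stood well above the next value of 5.41. Without that array the difference was 0.04 ± 0.02 (limma adjusted p = 0.249).

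Markers of microglia were dim as well. Over 15 microglia markers the mean per array ran from 5.71 to 5.75 in diabetic retinas and from 5.73 to 5.76 in control retinas; 5 of the 15 had a mean level at or above the median gene, and 0 passed the limma test (3 at an unadjusted p under 0.05). Changes were above 0 for 5 of the 15 and below 0 for 10 (median -0.02), and the 3 at an unadjusted limma p under 0.05 were all lower. The protease gene Ctss differed by 0.06 ± 0.06 (adjusted p = 0.633), the fractalkine receptor gene Cx3cr1 by 0.08 ± 0.06 (adjusted p = 0.474) and Csf1r, the receptor on which microglia depend for survival, by -0.08 ± 0.03 (adjusted p = 0.195). Of 5 markers of perivascular macrophages 0 passed, 4 were below 0 and 3 had an unadjusted p under 0.05 (changes from -0.21 to 0.0039), with means per array of 5.71 to 5.75 in diabetic retinas and 5.73 to 5.84 in control retinas. Over all genes, 3.24% passed and 21.0% had an unadjusted limma p under 0.05. In a fit with the microglia mean as a covariate, C1qa differed by -0.07, C1qb by 0.02 and C1qc by 0.08, again with 0 of the 9 genes past the test.

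**Figure D2:**
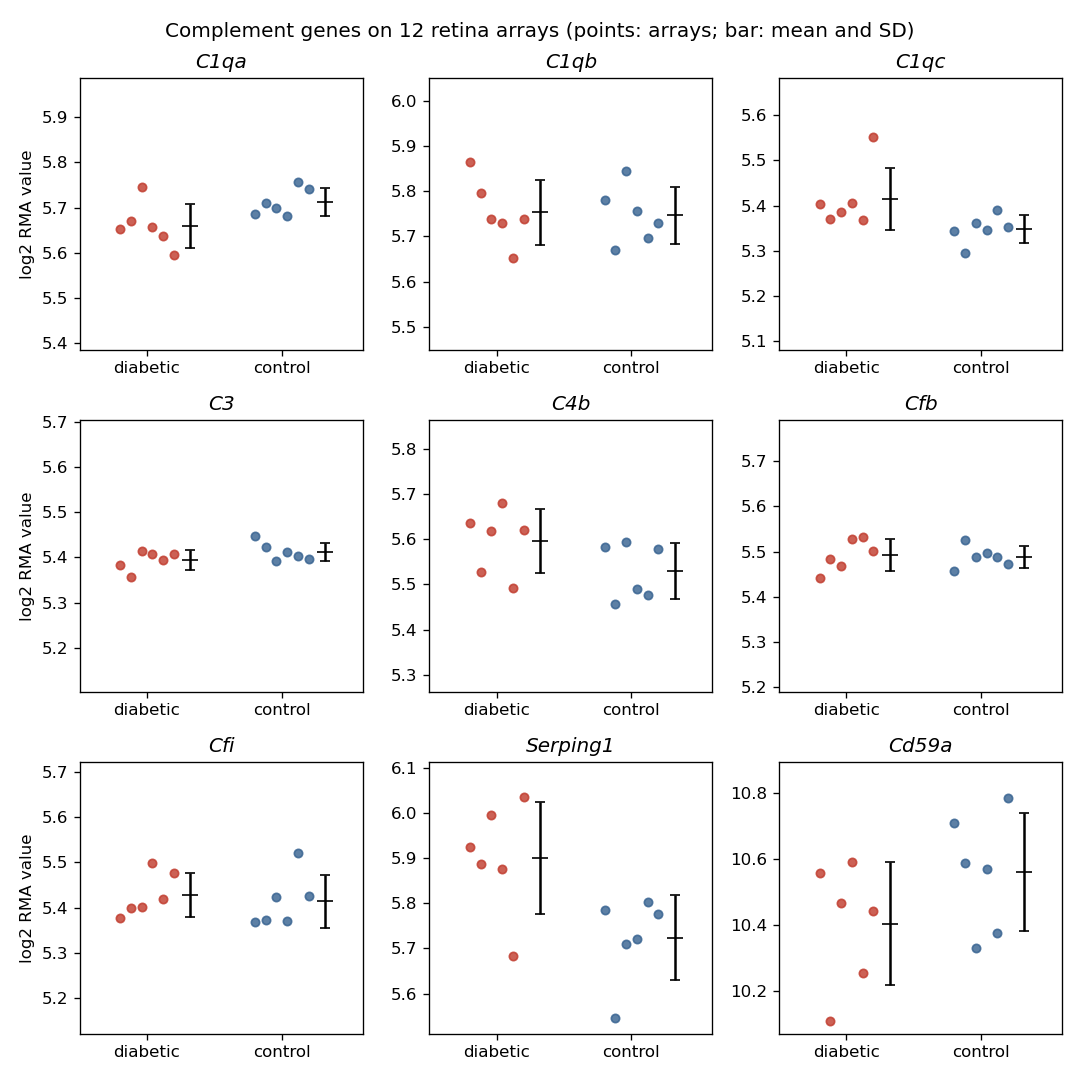
Log2 RMA values (y axis) of the 9 complement genes on each array, diabetic left and control right in each panel; points are single animals and bars the mean with SD of 6. The groups overlap in every panel, with Serping1 in 5 of 6 diabetic retinas above the highest control and C1qa in 5 of 6 below the lowest control.

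C3 and C4b are thioester proteins that bind covalently to surfaces once cleaved. C3 had 5.36 to 5.42 in diabetic retinas (median 5.40) and 5.39 to 5.45 in control retinas (median 5.41). Its spread was narrow: the SD within groups was 0.02, and 12.3% of all genes varied less. The difference was -0.02 ± 0.01 (95% interval -0.05 to 0.01; limma adjusted p = 0.509). The level was low, with 29.9% of genes below it.

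C4b had 5.49 to 5.68 in diabetic retinas (median 5.62) and 5.46 to 5.59 in control retinas (median 5.53). In 4 of 6 diabetic retinas it lay above the highest control, while the other two lay inside the control range. It differed by 0.07 ± 0.04 (95% interval -0.01 to 0.15; limma adjusted p = 0.327). C4a, its near-identical neighbour, differed by 0.05 ± 0.02 (adjusted p = 0.214), and probes may not tell these copies apart.

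Cfb, the protease precursor of the alternative pathway, had 5.44 to 5.53 in diabetic retinas (median 5.49) and 5.46 to 5.53 in control retinas (median 5.49). The groups lay on top of each other, with a difference of 0.0044 ± 0.02 (95% interval -0.04 to 0.04; limma adjusted p = 0.921). Cfi, the protease that degrades C3b and C4b, had 5.38 to 5.50 in diabetic retinas (median 5.41) and 5.37 to 5.52 in control retinas (median 5.40). Here every diabetic value lay inside the control range, and the difference was 0.01 ± 0.03 (95% interval -0.05 to 0.08; limma adjusted p = 0.827).

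Serping1 encodes the C1 inhibitor, which inactivates the proteases of C1 and is known as an interferon-induced and acute-phase gene. In diabetic retinas 1 to 6 its values were 5.92, 5.89, 6.00, 5.88, 5.68 and 6.03, against 5.78, 5.55, 5.71, 5.72, 5.80 and 5.78 in control retinas 1 to 6. All diabetic retinas except replicate 5 lay above the highest control, and diabetic replicate 5 lay below every control but replicate 2. The groups overlapped, as they did for all 9 genes, where 2.84% of all genes had groups without overlap. The difference was 0.18 ± 0.06 on the log2 scale, or 1.13-fold (95% interval 1.03 to 1.24), with an adjusted p of 0.118 by limma and an exact permutation p of 0.0238 (n = 6 per group, two-sided, adjusted p = 0.174).

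The call for Serping1 turned on a single animal. Without diabetic replicate 5 the difference was 0.22 ± 0.05 and passed (limma adjusted p = 0.0420), and in the 11 other runs that left out 1 array the adjusted p was above 0.05, up to 0.203. Without diabetic replicate 6, which had the highest lens markers, it was 0.15 ± 0.06 (adjusted p = 0.196). The smallest difference of these runs, 0.14 ± 0.05 (limma adjusted p = 0.201), came without control replicate 2, the control with the lowest value. Markers of several cell types differed beside Serping1, in both directions. Of 5 astrocyte markers, 3 were above 0, and their mean was 5.73 ± 0.03 in diabetic and 5.67 ± 0.03 in control retinas, with Gfap, the filament gene of astrocytes and reactive Mueller glia, higher by 0.19 ± 0.03 (adjusted p = 0.0126). Of 8 fibroblast markers, 4 were above 0 and 4 below (median 0.02), and their mean was 5.64 ± 0.06 in diabetic and 5.59 ± 0.02 in control retinas, with Pdgfra, which retinal astrocytes also express, higher by 0.19 ± 0.04 (adjusted p = 0.0205). Lower among the markers that passed were Acta2 of smooth muscle (-0.21 ± 0.05; adjusted p = 0.0367), cone arrestin (Arr3; -0.30 ± 0.07; adjusted p = 0.0348) and Mpo of neutrophils (-0.07 ± 0.02; adjusted p = 0.0367). Pericyte and smooth muscle markers numbered 7, with 3 above 0 and 4 below. The 10 lymphocyte and neutrophil markers had 3 above 0 and 7 below, and 0 had a mean at or above the median gene. For the 5 cone markers, 1 was above 0 and 4 below, and their mean was 10.15 ± 0.09 in diabetic and 10.27 ± 0.05 in control retinas.

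**Figure D3:**
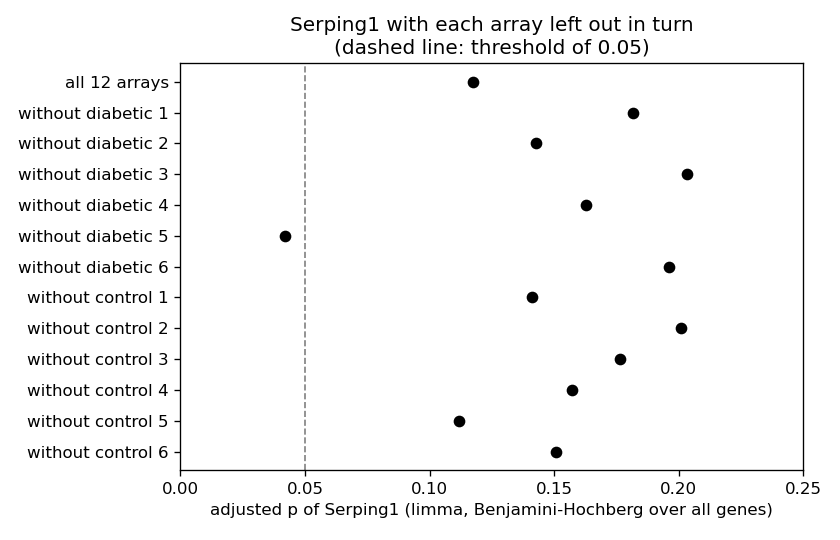
Limma adjusted p of Serping1 (x axis) with all 12 arrays and with each array left out (y axis); the dashed line is the threshold of 0.05. Only the run without diabetic replicate 5 lies below the line (0.0420), and the value with all arrays is 0.118.

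Cd59a, which encodes a membrane-anchored protein that stops assembly of the pore, stood high in the table, with 97.1% of genes below it. It had 10.11 to 10.59 in diabetic retinas (median 10.46) and 10.33 to 10.79 in control retinas (median 10.58). In 5 of 6 diabetic retinas the value was below the control mean, and 2 lay below the lowest control. The difference was -0.16 ± 0.10 on the log2 scale, or 0.897-fold (95% interval 0.774 to 1.04; limma adjusted p = 0.392), and -0.10 without diabetic replicate 2 (adjusted p = 0.573). It varied more within groups (SD 0.18) than 97.4% of genes, and its interval holds both no difference and 0.774-fold. Cd59b, its close paralogue, differed by 0.06 ± 0.04 (adjusted p = 0.481), and its probes may share signal with Cd59a.

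Other genes of the cascade were counted from lists by role, 44 genes in all, of which 8 had a mean at or above the median gene. None of the 44 passed by limma, 10 had an unadjusted p under 0.05, and the groups overlapped for all of them. Over all genes, 3.24% passed, 21.0% had an unadjusted limma p under 0.05 and 2.84% had groups without overlap. Among the 44, changes were above 0 for 19 and below 0 for 24, with a median of -0.0020, where 48.1% of all genes were above 0. Limma with an intensity trend and robust variance called 1 of the 44, C1s1.

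Among 14 other classical and lectin pathway genes, 5 were above 0. C1s1, the C1s protease that Serping1 inactivates, had 5.13 to 5.21 in diabetic retinas (median 5.20) and 5.07 to 5.19 in control retinas (median 5.11). It differed by 0.07 ± 0.02 (limma adjusted p = 0.0962), with 4 of 6 diabetic values above the highest control, at a level with 3.06% of genes below it. Mbl2, a lectin made in the liver, differed by -0.06 ± 0.02 (adjusted p = 0.170).

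Among 9 alternative and terminal pathway genes, properdin (Cfp), which stabilizes the C3-cleaving enzyme and is made by myeloid cells, had 6.13 to 6.38 in diabetic retinas (median 6.26) and 6.32 to 6.49 in control retinas (median 6.38). In 5 of 6 diabetic retinas it lay below the lowest control. The difference was -0.13 ± 0.04 (limma adjusted p = 0.0844). Hc, which encodes C5, differed by -0.03 ± 0.01 (adjusted p = 0.167), and the pore genes C6, C7, C8a, C8b, C8g and C9 had changes from -0.01 to 0.03.

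Of 12 other inhibitors, 6 had a mean at or above the median gene, among them clusterin (Clu) and vitronectin (Vtn), fluid-phase inhibitors of the pore that retina is known to make. Clu averaged 12.01 in both groups and differed by -0.0026 ± 0.03 (limma adjusted p = 0.974). Vtn had 12.05 to 12.29 in diabetic retinas (median 12.13) and 12.17 to 12.33 in control retinas (median 12.28), with a difference of -0.10 ± 0.04 (adjusted p = 0.206). Csmd1, a neuronal membrane inhibitor, differed by 0.09 ± 0.03 (adjusted p = 0.130). Cd46 and Cr1l, cofactors for the cleavage of C3b and C4b by the Cfi protease, differed by 0.11 ± 0.05 (adjusted p = 0.257) and -0.12 ± 0.07 (adjusted p = 0.350).

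Of 9 receptors, 0 had a mean at or above the median gene. C5ar2, a receptor of the fragment C5a, had 5.60 to 5.68 in diabetic retinas (median 5.63) and 5.61 to 5.80 in control retinas (median 5.72), with a difference of -0.08 ± 0.03 (limma adjusted p = 0.124). C5ar1, the signalling receptor of C5a, differed by -0.03 ± 0.02 (adjusted p = 0.234). Itgam, a chain of complement receptor 3 on microglia, differed by -0.03 ± 0.02 (adjusted p = 0.391).

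**Figure D4:**
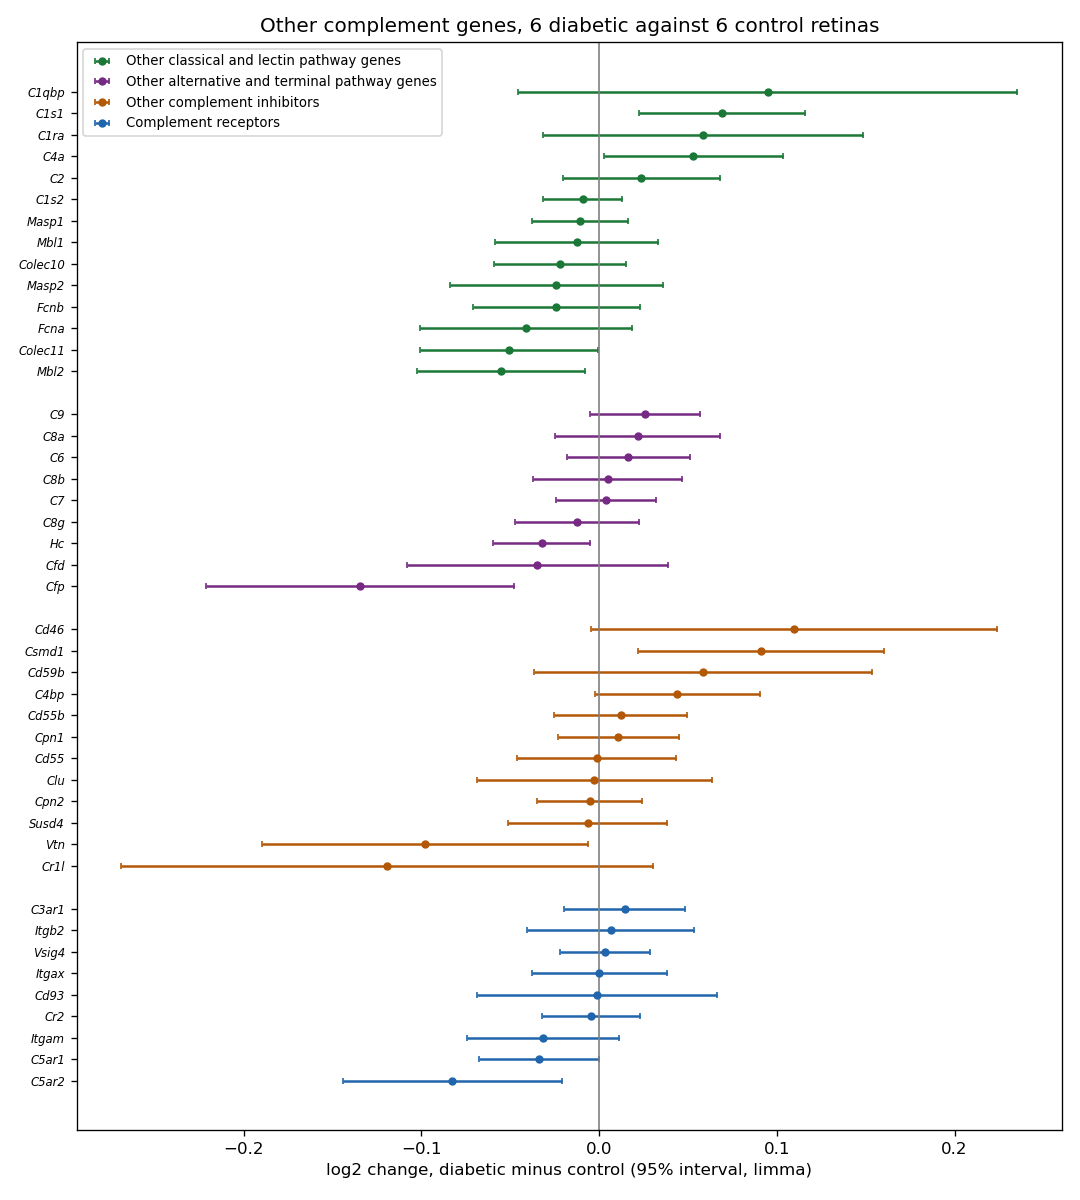
Log2 change, diabetic minus control (x axis), of 44 other complement genes (y axis), coloured by list and sorted within it; points are limma estimates and bars 95% intervals, 6 arrays per group. Changes run from -0.13 for Cfp and -0.12 for Cr1l to 0.11 for Cd46, and none of the 44 passed after adjustment over all genes.

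Of 18 genes for cytokine signals and transcription factors known to induce complement genes, 1 passed by limma. Over all genes, 3.24% passed. Stat3, which carries interleukin-6 signals, had 8.70 to 8.87 in diabetic retinas (median 8.79) and 8.55 to 8.77 in control retinas (median 8.58), with 4 of 6 diabetic values above the highest control. It rose by 0.18 ± 0.04 (limma adjusted p = 0.0351), and the call was lost in 10 of 12 runs that left out 1 array, and with the replicate number as a block. Of the list, 10 genes were above 0, with a median change of 0.01.

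Within groups, no pair of the 9 genes passed a test for shared variation from animal to animal. With 12 arrays, and most of the 9 genes near the low end of the table, this does not show that such variation is absent. After group means were subtracted, 20 of 36 pairs had a Pearson r above 0, with a median of 0.09, and 0 passed a permutation test after adjustment over the 36 pairs (3 at an unadjusted p under 0.05, 0 by Spearman's rho after adjustment). The C1q chains, parts of 1 protein, had r of -0.12 for C1qa with C1qb, -0.39 for C1qa with C1qc and 0.09 for C1qb with C1qc over 12 arrays (permutation p = 0.748, 0.305 and 0.760; rho -0.17, -0.20 and 0.18, permutation p = 0.624, 0.528 and 0.572; adjusted p of r 0.937, 0.837 and 0.937). Without the 2 arrays farthest from the median of the first gene, these r were -0.19, 0.40 and 0.13. The largest r was that of C1qb with Cfb, at -0.73 (permutation p = 0.0128, adjusted p = 0.393; rho -0.73, permutation p = 0.0136, adjusted p = 0.490), and it was -0.73 without the 2 farthest arrays, with -0.86 in diabetic and -0.51 in control retinas.

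Serping1 varied with C1qc at r = 0.66 (permutation p = 0.0637, adjusted p = 0.393; rho 0.60, permutation p = 0.0310, adjusted p = 0.558), and at 0.62 without the 2 farthest arrays. C4b and Serping1 had r = 0.57 (permutation p = 0.0744, adjusted p = 0.393), with a rho of 0.22 (permutation p = 0.530, adjusted p = 0.905). This r was -0.03 without the 2 arrays farthest from the median of C4b, so its size depended on them. Against the means of 15 marker lists, chosen as a comparison after the data were seen, 0 of 135 pairs of a gene and a list passed a permutation test after adjustment (lowest adjusted p = 0.512, 4 at an unadjusted p under 0.05). These pairs include each C1q chain with the microglia and macrophage lists, whose r ran from -0.39 to 0.39 (adjusted p = 0.993 for each). The highest r of the 135 was that of C1qc with pigment epithelium, at 0.795 (permutation p = 0.00758, adjusted p = 0.512). It was 0.55 without the 2 farthest arrays. The lowest was that of Cd59a with lymphocytes and neutrophils, at -0.76 (permutation p = 0.00588, adjusted p = 0.512).

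**Figure D5:**
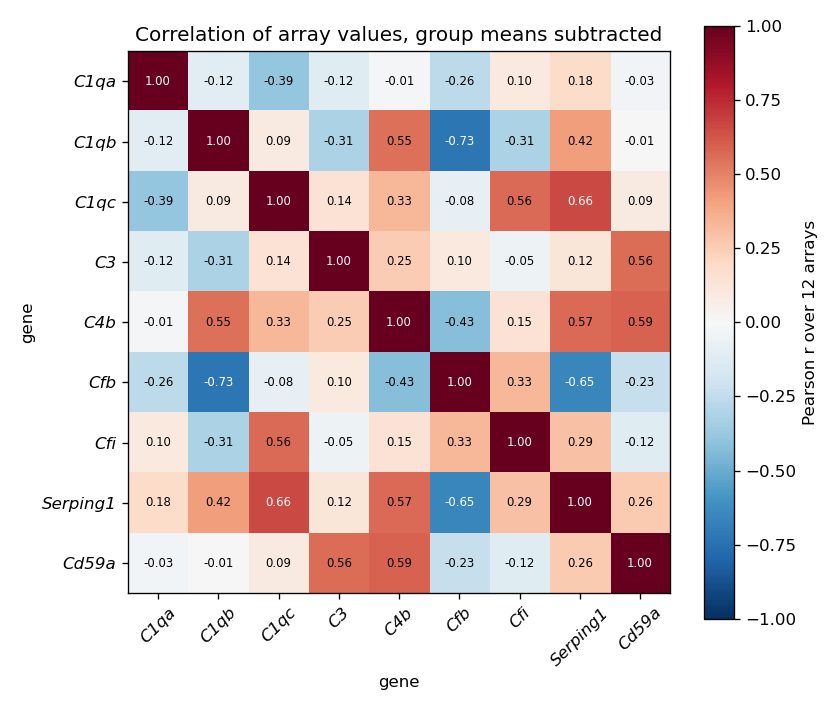
Pearson r over 12 arrays between each pair of the 9 complement genes (both axes), after group means were subtracted; red is above 0 and blue below 0. The lowest value is -0.73 (C1qb with Cfb), the highest 0.66 (C1qc with Serping1), and no pair passed a permutation test after adjustment over 36 pairs.

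By the likeness of values over 12 arrays with group means subtracted, the genes closest to the mean of the C1q chains were Kcng4 (Pearson r 0.95), Mcoln1 (0.92), Notch2 (0.91), Tmem131l (0.91) and Glb1 (0.90). Closest to C4b were Mat2b (0.94), Arfip1 (0.91), Mrpl50 (0.87) and Mir466b-2 (0.87). These are among the highest of all genes searched, so they are given as a description with no p. Of the 15 microglia markers none stood among the 5 closest to the C1q chains. With all named genes searched, so short a list would rarely hold any of 15 given genes, so their absence carries no information. No shared variation of the chains was shown either (r of -0.12, -0.39 and 0.09 between them). Whether microglia were the source of the C1q signal was not tested.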

How the data were processed

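Whole retina of 12 mice, 6 diabetic and 6 control, was measured with 1 array each, and groups and replicate numbers were taken from the sample titles. The authors deposited log2 values made with RMA, per the submitters' processing notes. The RMA version and the array design are not given in the sources used here. All 12 arrays hold 1 distribution of values, as quantile normalization leaves it, which would hide a shift shared by most genes. Lines carry Entrez gene numbers; 24015 of 24973 were named by the platform annotation, symbols were updated from RefSeq (GRCm38.p6, names only), 399 lines stayed without a name, and for 4 symbols on more than 1 line the brightest was kept.

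Changes were tested with limma 3.58.1 in R 4.3.3 (lmFit, eBayes, diabetic minus control, no filter), two-sided, with Benjamini-Hochberg adjustment over 24570 genes, and tested on simulated data. Errors of changes are standard errors and those of levels SDs. Exact permutation tests used all 924 relabelings (smallest p 0.00216), and correlations 100000 permutations within groups. Named are the 9 genes, members past the test of each list (otherwise the 2 of smallest p for the complement and inducer lists), the 4 brightest microglia markers, and the 5 genes most like the C1q chains and C4b; C4a, Cd59b, Clu, Cd46, Cr1l and Itgam were chosen after their values were seen. Values of 2 genes so chosen are left out. The members and lists were chosen with earlier results of these data known. Separate animals are stated, but no batch; control probes and detection calls were not analysed here, and the number of arrays limits the precision. Same-numbered replicates did not deviate together (correlations from -0.16 to 0.17). That gives no sign that the numbers pair the animals, but it cannot exclude it.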

Additional observations from a re-analysis of the deposited data

Results flagged for a closer look

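Of 94 sets of 6 arrays (each named gene or list mean, in each group), 8 (8.51%) had 1 array far from the other arrays by the ratio of its gap to the range of the group, past the 95% critical value of Dixon's ratio. Chance flags about 1 in 20 such sets. For 3 of the 9 complement genes this was so. C1qc was high in diabetic replicate 6 (5.55 against 5.41 for the next array, ratio 0.801), Cfi was high in control replicate 5 (5.52 against 5.43, ratio 0.628), and Serping1 was low in control replicate 2 (5.55 against 5.71, ratio 0.634). Diabetic replicate 6 was also low for the mean of the alternative and terminal pathway list (5.45 against 5.47, ratio 0.659) and for Mpo, a neutrophil enzyme (5.44 against 5.50, ratio 0.736). Control replicate 2 was high for the mean of the classical and lectin pathway list (5.54 against 5.51, ratio 0.641) and for the astrocyte list (5.73 against 5.68, ratio 0.666). Stat3 was high in control replicate 4 (8.77 against 8.63, ratio 0.632). No array was left out of the values above for this.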

How the results depend on the processing

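The count of 0 of 9 complement genes past the test was the same with a trended and robust variance, with genes at or above the median level only (3 of the 9 tested), with cyclic loess, with the replicate block (0), with array weights, and with microglia or lens markers as a covariate; with each array left out it ran from 0 to 1. Each of the 9 kept its direction in these fits except C1qb, which was -0.0084 with array weights. With arrays left out, C1qb ran from -0.0156 to 0.0268 and Cfb from -0.0038 to 0.0148, and the other seven kept their sign, though not their size: Cfi ran from 0.0006 to 0.0362, C3 from -0.0224 to -0.0107 and Cd59a from -0.2022 to -0.0974. Exact permutation called 0 of the 9 and 0 of all genes, so its count says nothing about stability. Other complement genes past the test numbered 1 with a trended variance (C1s1, adjusted p = 0.0448, against 0.0962) and 0 to 1 with arrays left out (C1s1 without control replicate 2, C5ar2 without control replicate 4). The inducer count of 1 became 0 with a trended variance, with the replicate block and with the microglia or lens covariate, 2 with array weights (Stat3 and Il6st), and 0 to 1 with arrays left out; the cause was not tested. The 797 genes past the test became 506 with the replicate block, 452 with the lens covariate, and 325 to 835 with arrays left out (325 without diabetic replicate 4). Pairs of complement genes past the correlation test numbered 0 with or without group means subtracted. Most of the 9 genes lie near the low end of the table, where RMA compresses changes, so 0 calls do not show that they were unchanged.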
